A study of Arabidopsis thaliana with 6 samples.

Results

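The comparison set seedlings of a single cdpk6-yfp transgenic line, line 4, against a pair of arrays that share the title code A3, with no control array in the contrast. The arrays were chosen by the code in their titles, which gave A2-1 and A2-2 for line 4 and A3-1 and A3-2 for the other pair, 4 of the 6 arrays of the series. All plants were Arabidopsis thaliana of the ecotype Col-0, sampled as whole seedlings from a growth room at 22 °C with 16 h of light. Each array held RNA from a pool of about 40 plants. Line 4 is labelled as carrying a cdpk6-yfp transgene, in strain cdpk6-yfp 4. Array A3-2 is labelled with the same modification in strain cdpk6-yfp-1. The labels of A3-1 conflict. Its title, Kan-3, continues Kan-1 and Kan-2 of the control arrays and its source name gives aeq, whereas its strain label reads cdpk6-yfp-1 and its modification cdpk6-yfp. The genotype of A3-1 is therefore uncertain, and the pair may hold 2 arrays of line 1 or 1 of line 1 and 1 of the control. The control strain aeq+, with an Aequorin transgene (a calcium-reporting protein), is represented by the arrays coded A1-1 and A1-2, whose values are given as a description only. Each transgenic line is a single line. The promoter that drives the transgene and the age of the seedlings are not given in the sources used here.

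Calcium-dependent protein kinases carry a kinase domain and a calmodulin-like domain with EF-hands in the same protein, so that a rise in cytosolic calcium switches on the kinase itself. In Arabidopsis, members of the family act in immune signalling, in abscisic acid and salt responses and in guard cells. Touch, cold and microbial elicitors all raise cytosolic calcium within moments, and a set of genes for calmodulin-like proteins, zinc finger factors and ubiquitin ligases follows quickly. Genes of salicylate-dependent defence respond more slowly and form a partly separate programme.

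The deposited values were intensities on a linear scale, scaled on each array to a 2% trimmed mean of 100.01. No probe set was named as either gene that has carried the name CDPK6 (CPK3 or CPK6), so the level of its transcript was not analysed here. Over the 13648 probe sets kept (probe sets of 1 array share that array and are no replicates), log2 values correlated at r = 0.990 between the line 4 arrays, at 0.930 between the A3 arrays and at 0.982 between the control arrays. A3-1 correlated with the control arrays at 0.901 and 0.892, and A3-2 at 0.945 and 0.938. The array's 5S ribosomal RNA control stood at 8.2 and 10.4 in line 4, 83.2 on A3-1 and 73.2 on A3-2, with 12.7 and 16.1 on the control arrays. Its counterpart for 25S ribosomal RNA gave 275.4 and 915.9 in line 4, 2189.3 and 1073.1 on the A3 arrays and 282.1 and 277.2 on the control arrays. Ribosomal RNA signal thus moved with the comparison, and its part in the results was not tested. The ratio of 3′ to 5′ signal for actin, which rises as RNA degrades, was 3.19 and 3.48 in line 4 and 4.67 and 4.17 on the A3 arrays, with 4.27 and 4.30 in the control. That for GAPDH was 1.54 and 1.43 against 1.67 and 1.58, with 1.79 and 1.71 in the control. For ubiquitin the ratios were 2.58 and 2.42 against 2.61 and 3.02, with 3.24 and 3.26 in the control. The part of this difference in the results was also not tested.

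More genes stood well above pair A3 in line 4 than well below it. With limma across all 13648 probe sets kept, 383 passed an adjusted p of 0.05 as higher in line 4 (2.81% of those tested) and 89 as higher on pair A3 (0.652%). The pairs did not overlap at 2779 probe sets higher in line 4 (20.4%) and 4637 higher on pair A3 (34.0%). Separation alone is therefore common here, and it leaned towards pair A3; the median difference over all probe sets was -0.07 on the log2 scale. A stricter measure took the gap between the lowest array of the higher pair and the highest array of the lower pair, with values under 10 raised to 10. By that measure 358 probe sets were at least 2-fold apart and higher in line 4 (2.62%) and 73 were at least 2-fold apart and higher on pair A3 (0.535%). At 8-fold or more the numbers were 34 and 0. A single gene was named for 160 of the 358, several genes for 7 and none for 191, while 29 of the 73 had a single gene and 44 had none. Without adjustment, 2765 probe sets had a p under 0.05, and 1290 of these were higher in line 4.

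**Figure D1:**
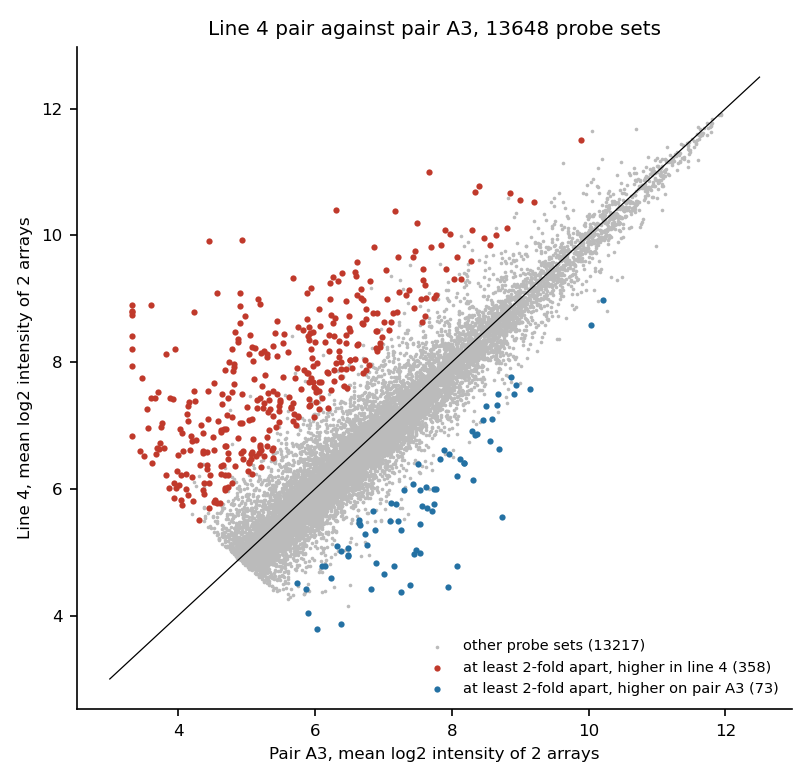
Mean log2 intensity of the 2 line 4 arrays (vertical axis) against that of the A3 arrays (horizontal axis) for 13648 probe sets, with values under 10 raised to 10 and the line of equal level drawn. The 358 red points, at least 2-fold higher in line 4 on every array, reach farther from the line than the 73 blue points that were at least 2-fold higher on pair A3.

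With 2 arrays against 2, an exact permutation test could not go below p = 0.333, so the calls rest on limma's pooled estimate of spread, and their p-values speak only of how these pools varied. That spread came mostly from pair A3, where 751 probe sets differed at least 2-fold between A3-1 and A3-2, against 16 between the line 4 arrays and 93 between the control arrays. Without line 4 replicate 1, 15 probe sets passed as higher in line 4 and 0 as higher on pair A3, and without line 4 replicate 2 these were 27 and 0. Set against A3-1 alone, where the spread comes from line 4 only, 2318 passed as higher in line 4 and 2819 as lower, and against A3-2 alone 1682 and 1602. All 383 higher and 89 lower calls of the paired contrast passed in the same direction against each A3 array alone. Since the latter fits share the line 4 arrays and take their spread from them, they are no independent check. Moving A3-1 to the control keeps the differences from A3-2 alone, but adds the distance of A3-1 from the control arrays to the spread. With A3-1 moved to the control, 43 passed as higher in line 4 than on A3-2 and 0 as lower, and 34 of the 383 were among them. In that arrangement 8 of the 58 named probe sets that passed still did, among them AT5G55450, AT5G03350, RING1, AT1G35710 and AT5G52810.

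The control arrays showed that the separated genes fell into different patterns. Among the 358 probe sets higher in line 4, 116 had line 4 at least 2-fold away from the mean of the control while pair A3 stayed within 2-fold of it. At 171 the reverse held, with line 4 near the control and pair A3 at least 2-fold away. At 29 both lay at least 2-fold from the control on opposite sides, at 5 on the same side, and at 37 neither did. Among the 73 higher on pair A3, the count was 10 for line 4 away from the control, 43 for pair A3 away, 2 for both on opposite sides, 1 for both on the same side and 17 for neither. These positions are a description, since A3-1 may itself be a control array.

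**Figure D2:**
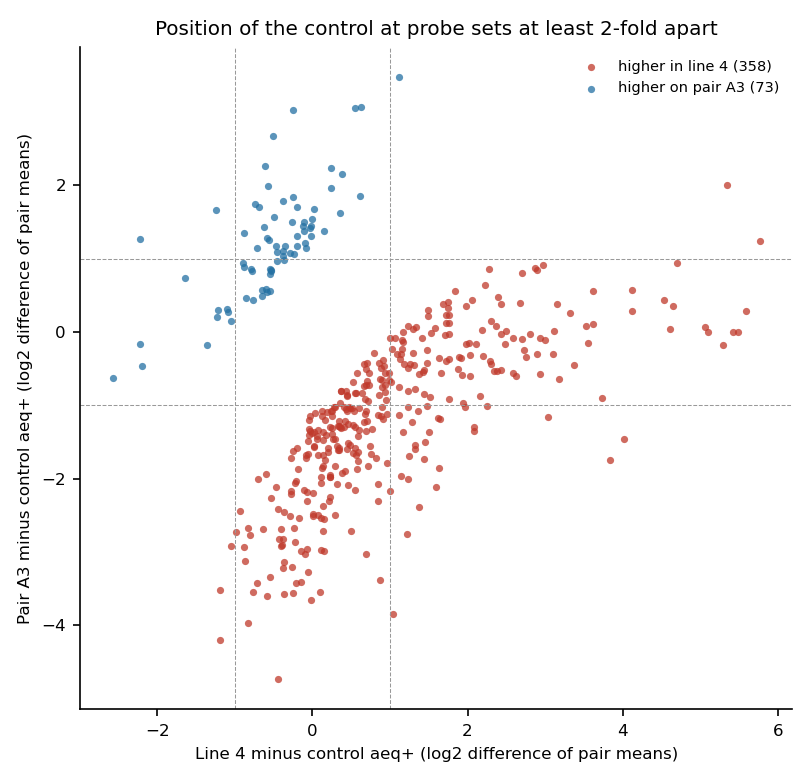
Line 4 minus control (horizontal axis) and pair A3 minus control (vertical axis), as log2 differences of pair means with values under 10 raised to 10, for the 431 probe sets (358 and 73) at least 2-fold apart; dashed lines mark 2-fold. Red points, higher in line 4, run along 2 arms, 1 to the right at levels near the control on pair A3 and 1 downward at levels near the control in line 4.

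The widest gaps belonged to genes that were near the array's floor on pair A3 and strongly expressed in line 4. AT5G55450, of the lipid-transfer protein family, read 442.1 and 453.2 in line 4, 3.1 and 2.4 on A3-1 and A3-2, and 3.7 and 3.2 on the control arrays. AT3G60420, of the phosphoglycerate mutase family, read 522.8 and 437.4 in line 4, 4.1 and 2.2 on pair A3 and 40.7 and 27.6 in the control. AT5G52760, which encodes a protein with a heavy-metal-associated domain, read 453.0 and 436.6 in line 4, 3.2 and 8.6 on pair A3 and 27.0 and 28.2 in the control. With readings under 10 raised to 10, the nearest arrays of the pairs were 44.2, 43.7 and 43.7-fold apart at these 3 genes. The fitted log2 differences of 7.36 ± 0.20, 7.31 ± 0.34 and 6.41 ± 0.48 (SE, n = 2 against 2; limma adjusted p = 0.00171, 0.0033 and 0.00779) depend on readings of a few units and are larger. AT5G52750, the neighbour of AT5G52760 with the same kind of domain, read 302.9 and 310.0 in line 4 against 40.5 and 43.4 on pair A3, with 107.7 and 109.0 in the control. Its difference was 2.87 ± 0.13 (adjusted p = 0.0033), and the pairs lay on opposite sides of the control. The third measured gene of that domain family, AT1G01490, read 388.0 and 395.3 in line 4 and 816.9 and 434.9 on pair A3, higher on the A3 arrays without passing (-0.61 ± 0.31, adjusted p = 0.349).

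Genes linked to salicylate defence were higher in line 4 on both arrays. AT5G03350, a legume-type lectin gene, read 1330.7 and 1385.1 in line 4, 75.4 and 83.1 on pair A3 and 59.0 and 58.4 in the control. The difference between the pairs was 4.1 ± 0.13 (limma adjusted p = 0.00171), and A3-1, A3-2 and the control arrays lay within 2-fold of each other. RING1, a RING-type ubiquitin ligase gene, read 604.2 and 545.1 in line 4, 63.9 and 59.1 on pair A3 and 83.3 and 104.7 in the control (difference 3.22 ± 0.14, adjusted p = 0.0033). It was the 1 of 6 measured RING-type ligase genes that passed. Of these 6, 2 were separated as higher in line 4 and 3 as higher on pair A3, beside 20.4% and 34.0% of all probe sets. The median of the 6 was -0.23, or 1.28 over the 2 left by the stricter filter. AT5G52810, an enzyme gene of pipecolate synthesis, read 356.3 and 257.9 against 35.2 and 32.8, with 53.7 and 47.1 in the control (3.16 ± 0.20, adjusted p = 0.00579). In each of these 3 genes line 4 stood at least 4-fold above the control and both A3 arrays lay within 2-fold of it. The list for salicylate and systemic defence had 3 measured members, of which 2 passed as higher in line 4, AT5G52810 and GRX480, a glutaredoxin gene whose product binds TGA factors. GRX480 read 138.2 and 118.8 in line 4, 16.3 and 25 on pair A3 and 35.1 and 41.0 in the control (2.67 ± 0.25, adjusted p = 0.014). SAG101, which encodes a partner of the immune regulator EDS1, read 77.2 and 69.7 against 28.8 and 45.6 without passing (1.02 ± 0.26, adjusted p = 0.131). The median of the 3 members was 2.67, beside -0.07 over all probe sets, of which 2.81% passed as higher in line 4. The list is short and was chosen with earlier results of these data known, so its counts and median are a description only. AT5G03350 and RING1 are not on it.

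**Figure D3:**
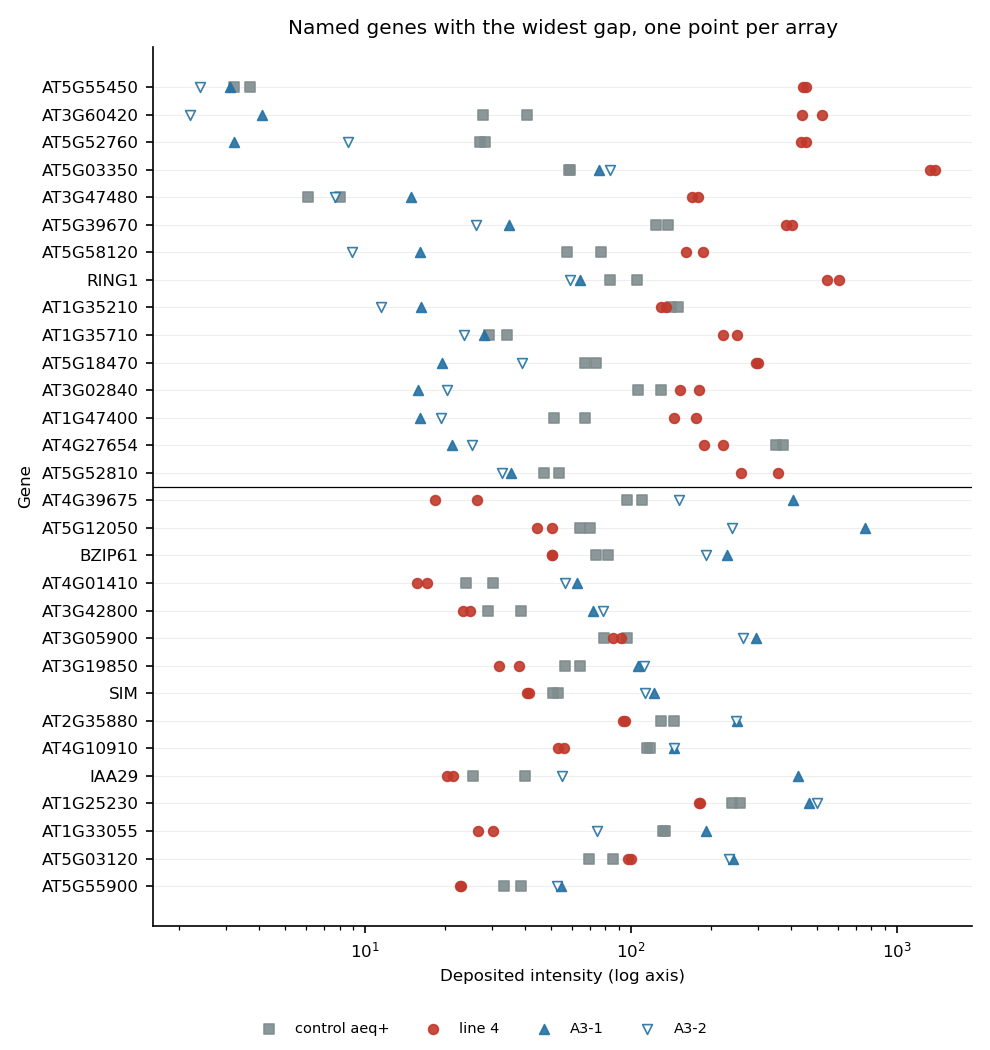
Deposited intensity on a log axis for the 15 genes with the widest gap in each direction (upper and lower block), with 1 point for each of the 6 arrays. In the upper block the line 4 arrays lie to the right of both A3 arrays, while the control arrays lie between the pairs at some genes and outside them at others, above line 4 at AT4G27654 and AT1G35210 and below both A3 arrays at AT5G03350. In the lower block the A3 arrays lie to the right, and A3-1 is far beyond A3-2 at AT5G12050 and IAA29.

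Genes for calcium sensors were among those farthest apart. Of 20 calmodulin and calmodulin-like genes named on the array, 13 were above the filter on dim signals, counted from here on as measured. Among these 13, 6 passed as higher in line 4 and 0 as higher on pair A3, where 2.81% of all probe sets passed as higher. All gene lists here were chosen with earlier results of these data known, so their counts and medians are a description only. The median difference of the list was 1.10. All 13 had pairs that did not overlap, 10 higher in line 4 and 3 lower, beside 20.4% and 34.0% of all probe sets. At 6 the pairs were at least 2-fold apart and higher in line 4, where 2.62% of all were. AT3G47480, which encodes an EF-hand protein, read 169.2 and 178.9 in line 4, 14.9 and 7.7 on pair A3 and 8.0 and 6.1 in the control (4.02 ± 0.34, adjusted p = 0.0103). AT5G39670, another EF-hand gene, read 402.0 and 383.1 in line 4, 34.6 and 26.1 on pair A3 and 123.4 and 137.6 in the control (3.71 ± 0.18, adjusted p = 0.00352). AT3G47480 was at the control's level on pair A3, whereas AT5G39670 lay below the control there and above it in line 4. CML41, whose product acts at plasmodesmata during immune responses, read 125.5 and 117.6 against 28.6 and 21.5, with 23.8 and 23.3 in the control (2.29 ± 0.19, adjusted p = 0.0104). AT2G41090 read 1078.3 and 1004.3 in line 4, 257.6 and 245.0 on pair A3 and 131.7 and 149.0 in the control (2.05 ± 0.12, adjusted p = 0.00443). This was the 1 member of the 6 at which both A3 arrays also read above both control arrays. AT4G27280 read 1649.8 and 1627.9 in line 4, 361.3 and 591.3 on pair A3 and 1954.8 and 1886.0 in the control (1.83 ± 0.25, adjusted p = 0.0328), and AT2G46600 read 1453.0 and 1636.5 against 662.9 and 781.1, with 1678.2 and 1434.5 in the control (1.10 ± 0.13, adjusted p = 0.0233). In both of these line 4 was close to the control and pair A3 was low, and both calls were lost without the filter. CML38 read 653.6 and 631.5 in line 4 and 18.1 and 145.1 on A3-1 and A3-2, a difference of 3.65 ± 0.97 that did not pass (adjusted p = 0.141), and A3-1 was far lower than A3-2. CML30 ran the other way, at 20.4 and 17.9 against 58.8 and 40.2 (-1.35 ± 0.25, adjusted p = 0.0706).

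Resistance genes also held calls on the line 4 side. Of 29 measured genes (64 on the array) for proteins with a TIR domain or of the NLR class, which detect pathogen molecules inside the cell, 6 passed as higher in line 4 and 0 as higher on pair A3, where 2.81% and 0.652% of all probe sets did. The median was 0.50, or 0.27 with the dim members included, with 20 separated as higher in line 4 (20.4% of all probe sets were) and 1 as lower (34.0% of all were). AT5G58120, a TIR-type NLR gene, read 185.5 and 160.7 in line 4, 16.1 and 8.9 on pair A3 and 57.5 and 76.9 in the control (3.85 ± 0.32, adjusted p = 0.0098). AT1G72920, a TIR-domain gene, read 185.3 and 186.4 in line 4, 13.6 and 26.0 on pair A3 and 211.2 and 232.9 in the control (3.31 ± 0.33, adjusted p = 0.0148). Its near neighbours AT1G72900 and AT1G72940 differed by 2.49 ± 0.31 and 1.97 ± 0.30 (adjusted p = 0.0261 and 0.0423), again with line 4 within 2-fold of the control and pair A3 below it, and both missed the threshold without the filter on dim signals. AT2G20142 and AT3G44630 differed by 2.10 ± 0.18 and 1.43 ± 0.13 (adjusted p = 0.0111 and 0.0124). Paralogues of this class can share probes, and how far the probe sets tell them apart was not tested.

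Of 10 measured leucine-rich repeat receptor kinase genes, from 40 on the array, 2 passed as higher in line 4 and 0 as higher on pair A3, beside 2.81% and 0.652% of all probe sets. The median of 0.83 over these 10 did not hold for the whole list, which had a median of -0.03 with the dim members included. AT1G35710 read 250.3 and 221.9 in line 4, 28.0 and 23.6 on pair A3 and 29.3 and 34.1 in the control (3.20 ± 0.16, adjusted p = 0.0037). AT4G08850 differed less, with 248.5 and 243.8 against 126.7 and 128.6 (0.95 ± 0.13, adjusted p = 0.0328). The mannose-binding lectin gene AT5G18470 read 298.5 and 294.4 in line 4, 19.5 and 38.8 on pair A3 and 66.8 and 73.8 in the control (3.43 ± 0.34, adjusted p = 0.0151). Among 5 measured AAA-type ATPase genes 2 passed as higher in line 4, where 2.81% of all probe sets did. These were AT1G43910 at 307.0 and 327.0 against 38.7 and 54.9 (2.78 ± 0.21, adjusted p = 0.00779) and AT5G17760 at 157.2 and 121.0 against 16.4 and 28.4 (2.68 ± 0.31, adjusted p = 0.0224, lost without the filter). Their control values of 32.6 and 38.8 and of 19.6 and 26.8 were close to those of pair A3.

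Of the 171 probe sets at which pair A3 and not line 4 lay at least 2-fold from the control, 3 were among the 15 genes with the widest gap. AT1G35210 read 129.0 and 134.7 in line 4, 16.2 and 11.5 on pair A3 and 149.5 and 141.6 in the control (3.27 ± 0.22, adjusted p = 0.00654). AT4G27654 read 187.0 and 221.2 in line 4, 21.2 and 25.2 on pair A3 and 351.1 and 370.8 in the control (3.14 ± 0.17, adjusted p = 0.0044). AT3G02840, an ARM-repeat protein gene, read 179.7 and 153.1 in line 4, 15.8 and 20.2 on pair A3 and 106.0 and 129.8 in the control (3.21 ± 0.20, adjusted p = 0.0054). In all 3 the A3 arrays were close to each other and at least 4-fold below the control arrays. PUB23, a U-box ubiquitin ligase that damps immune signalling, read 175.9 and 184.6 in line 4, 25.6 and 24.4 on pair A3 and 165.7 and 162.9 in the control (2.85 ± 0.14, adjusted p = 0.00349). Of 8 measured U-box ligase genes, 2 passed as higher in line 4 and 0 as higher on pair A3, with a median of 0.51, or 0.22 with the dim members included and 1.44 over the 2 that passed the stricter filter. PUB19 was the other (1.50 ± 0.22, adjusted p = 0.039, lost without the filter), while PUB22 and PUB24, close relatives of PUB23, differed by 1.23 ± 0.20 and 0.80 ± 0.14 without passing (adjusted p = 0.0529 and 0.0571). WRKY53, a transcription factor of senescence and defence, read 117.5 and 109.5 in line 4, 24.2 and 21.6 on pair A3 and 86.9 and 83.2 in the control (2.31 ± 0.16, adjusted p = 0.00654). It was the 1 of 6 measured WRKY genes that passed, and the median of that list was 0.03. AT3G16530, a lectin gene of the early defence list, also passed (1.30 ± 0.14, adjusted p = 0.0174), which made 2 of the 5 measured members with WRKY53, and the median of that list was 0.76. The AP2/ERF factor gene AT1G77640 passed as well (1.69 ± 0.27, adjusted p = 0.0491), as 1 of 9 measured members of a family whose median was 0.15, or 0.46 with dim members. That call was lost without the filter, with the stricter filter, with quantile normalisation and without the variance trend. Beside the list counts given here, 2.81% of all probe sets passed as higher in line 4 and 0.652% as higher on pair A3.

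Genes of oxidative stress, detoxification and iron supply added smaller numbers of calls. Beside the list counts given here, 2.81% of all probe sets passed as higher in line 4 and 20.4% were separated in that direction. All 11 measured members of the oxidative stress and xenobiotic list had a positive difference, 10 of them with pairs that did not overlap, and the median was 0.87, but 2 passed. AT1G05575 read 418.9 and 412.4 in line 4, 61.9 and 99.8 on pair A3 and 316.1 and 348.8 in the control (2.40 ± 0.25, adjusted p = 0.0173). GSTU25, a tau-class glutathione transferase, read 263.0 and 336.5 against 97.5 and 132.7, with 127.5 and 138.3 in the control (1.39 ± 0.22, adjusted p = 0.0487). AT1G05575 was low on pair A3, whereas GSTU25 was high in line 4, and the call on GSTU25 was lost under the same 4 settings as that on AT1G77640. Of 22 measured UDP-glycosyltransferase genes, 2 passed as higher in line 4, UGT76B1, whose product attaches glucose to salicylate and related immune signals (1.63 ± 0.16, adjusted p = 0.0155), and UGT87A2 (1.15 ± 0.14, adjusted p = 0.0256). The median of that family was 0.07. CYP71B23 and CYP71B26 were the 2 of 8 measured cytochrome P450 genes that passed (1.99 ± 0.15 and 1.62 ± 0.26, adjusted p = 0.00785 and 0.0487), and the call on CYP71B26 was lost under those 4 settings too. The median of the P450 list was 0.53, or 0.21 with dim members. The peroxidase gene AT5G64120 was the 1 of 6 (1.90 ± 0.24, adjusted p = 0.0264, lost without the filter). AT1G47400, a gene for a short peptide of the iron deficiency response, read 175.8 and 144.2 in line 4, 16.1 and 19.3 on pair A3 and 51.3 and 67.0 in the control (3.18 ± 0.19, adjusted p = 0.00493). Only 2 iron-responsive genes were measured, and the other, AT3G12900, differed by 0.61 without passing.

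Cold response genes leaned to line 4, and how far depended on the A3 array. STZ, a zinc finger repressor of salt and cold responses, read 1396.0 and 1280.0 in line 4, 87.0 on A3-1, 237.0 on A3-2 and 1549.4 and 1545.0 in the control (3.22 ± 0.48, adjusted p = 0.0407). COR15A, which encodes a cryoprotective chloroplast protein, read 559.0 and 819.9 in line 4, 45.7 and 155.6 on pair A3 and 1840.0 and 1299.6 in the control (3.01 ± 0.60, adjusted p = 0.0805). The dehydrin gene LTI30 read 690.8 and 733.8 in line 4, 129.3 and 284.3 on pair A3 and 944.6 and 784.8 in the control (1.89 ± 0.38, adjusted p = 0.081). STZ was the 1 of 8 measured members that passed (2.81% of all probe sets did), a call lost without the filter. All 8 had a positive difference, 6 of them separated as higher in line 4, beside 20.4% of all probe sets. The pairs overlapped at the other 2, COR27 and AT4G33980, which are also clock-linked. Both read higher on A3-2 than in line 4, so their positive differences came from A3-1 alone. The list median was 2.12 against the pair, 3.84 against A3-1 alone and 0.50 against A3-2 alone, so that 1 array decides its size. Clock-linked genes split the A3 arrays outright. COR27 read 141.2 and 137.5 in line 4, 5.3 on A3-1, 230.5 on A3-2 and 288.9 and 266.2 in the control, and AT4G33980 read 165.8 and 136.7, 4.0, 235.8 and 244.0 and 282.4. GI, a core clock gene, read 314.2 and 318.4 in line 4, 85.5 on A3-1 and 305.8 on A3-2. None of the 6 measured clock-linked genes passed in limma, at an unadjusted p under 0.05 either, and their median was 3.00 against A3-1 alone and -0.25 against A3-2 alone.

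**Figure D4:**
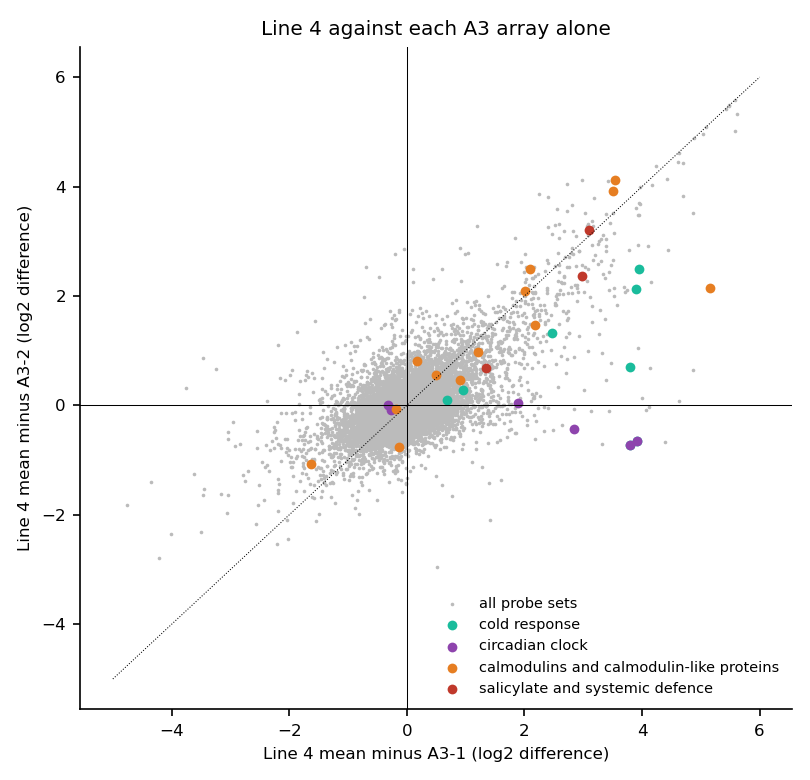
Line 4 mean minus A3-1 (horizontal axis) and line 4 mean minus A3-2 (vertical axis), as log2 differences with values under 10 raised to 10; grey points are all probe sets and the dotted line marks equal difference. Salicylate and most calmodulin-like genes lie near the dotted line, cold response genes (2 of which are also clock-linked and drawn as such) lie to its right, and 4 clock-linked genes lie far right with differences near or below 0 from A3-2.

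Fewer probe sets passed, or were at least 2-fold apart, as higher on pair A3, and their widest gaps were smaller. Separation alone was more common in that direction (34.0% of all probe sets against 20.4%). BZIP61, a bZIP transcription factor gene, read 50.2 and 50.3 in line 4, 228.4 and 190.9 on A3-1 and A3-2 and 73.4 and 81.9 in the control, a difference of -2.05 ± 0.15 (limma adjusted p = 0.00779). SIM, an inhibitor of cyclin-dependent kinases that promotes endoreduplication, read 40.6 and 41.1 in line 4, 122.3 and 112.3 on pair A3 and 53.0 and 50.9 in the control (-1.52 ± 0.14, adjusted p = 0.013). AT3G05900 read 91.3 and 85.7 in line 4, 295.6 and 262.1 on pair A3 and 79.0 and 96.7 in the control (-1.65 ± 0.14, adjusted p = 0.0109). In these 3 genes line 4 was near the control and both A3 arrays were high by similar amounts. AT2G35880, of the TPX2 family of microtubule-binding proteins, read 92.9 and 94.9 against 248.8 and 248.0, with 129.0 and 144.5 in the control (-1.40 ± 0.13, adjusted p = 0.013). AT1G25230, of the purple acid phosphatase family, read 180.2 and 182.1 against 467.1 and 497.9, with 256.3 and 239.7 in the control (-1.41 ± 0.12, adjusted p = 0.0113). AT4G10910 read 53.0 and 55.8 against 144.7 and 145.3, with 114.9 and 117.8 in the control (-1.41 ± 0.13, adjusted p = 0.0138), and it differs from the others in that line 4 was the pair farther from the control. AT4G01410, AT3G42800, AT3G19850 (of the NPH3 family), AT5G03120 and AT5G55900 also passed, with differences from -1.86 to -1.23, and the call on AT5G55900 was lost without the filter.

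At 4 genes the height of the A3 arrays differed so much that the call was weak or absent. AT4G39675 read 26.2 and 18.3 in line 4, 404.5 on A3-1, 151.6 on A3-2 and 109.3 and 96.2 in the control, and its difference of -3.50 ± 0.50 passed narrowly (adjusted p = 0.0371). AT5G12050 read 44.1 and 50.2 in line 4, 758.9 and 239.7 on pair A3 and 64.1 and 70.1 in the control (-3.18 ± 0.55, adjusted p = 0.0573). IAA29, an auxin-induced repressor gene, read 20.3 and 21.3 in line 4, 425.2 on A3-1, 55.1 on A3-2 and 39.7 and 25.4 in the control (-2.88 ± 0.95, adjusted p = 0.197). All 3 were highest on A3-1, and at IAA29 array A3-2 was less than 3-fold above line 4. AT1G33055 read 30.3 and 26.6 in line 4, 190.3 and 74.1 on pair A3 and 131.4 and 133.6 in the control (-2.06 ± 0.46, adjusted p = 0.0997), so that here the control lay between the A3 arrays and line 4 was low. Of the 15 genes with the widest gap on the A3 side, 12 passed, while all 15 on the line 4 side did.

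The core hypoxia list held a call on each side. Of 15 measured members, 1 passed in each direction (background 2.81% and 0.652%), AT1G05575 as higher in line 4 and AT4G39675 as higher on pair A3, and the call on AT4G39675 was lost without the filter. The median was -0.36, but -0.05 with the stricter filter and -0.61 with dim members. The pairs did not overlap at 2 members higher in line 4 and 7 higher on pair A3, beside 20.4% and 34.0% of all probe sets. AT1G19530 read 46.7 and 21.6 in line 4, 349.9 and 98.9 on pair A3 and 41.4 and 53.5 in the control (-2.55 ± 0.69, adjusted p = 0.147), whereas CML38, also on this list, was 3.65 higher in line 4 without passing. AT4G39675 lies beside AT4G39670, which was 2.52 higher in line 4, the 1 pair of the 8 close pairs among the separated genes that ran in opposite directions.

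Lists of auxin, sugar starvation and senescence, cell wall and tubulin genes sat on the A3 side of 0, with few calls. In the auxin list, all 5 measured members had a negative difference, 4 of them with pairs that did not overlap, and the median was -0.81. GH3.17, which conjugates auxin to glutamate, was the 1 that passed, at 56.2 and 58.3 in line 4, 135.0 and 115.5 on pair A3 and 94.9 and 76.2 in the control (-1.13 ± 0.15, adjusted p = 0.0324, lost without the filter). In the list for sugar starvation and senescence all 5 measured members were separated and higher on pair A3, with a median of -0.80. MCCB, a subunit gene of the leucine-degrading methylcrotonyl-CoA carboxylase, was the 1 that passed, narrowly (-0.80 ± 0.13, adjusted p = 0.0497), and this call too was lost under the 4 settings named for AT1G77640. Of 14 measured genes of pectin and polysaccharide enzymes none passed, with 9 separated as higher on pair A3, 2 as higher in line 4 and a median of -0.58, and an unadjusted p under 0.05 was reached by 7 on the A3 side and 1 on the other. None of 15 trichome birefringence-like genes, which acetylate wall polysaccharides, passed, with 8 separated as higher on pair A3, 2 at an unadjusted p under 0.05 and a median of -0.35. None of 7 tubulin genes passed either, with 4 separated in that direction, 2 at an unadjusted p under 0.05 and a median of -0.28. Over all probe sets 0.652% passed and 34.0% were separated in that direction. An unadjusted p under 0.05 in limma was reached by 20.3% of all probe sets in either direction, and by 9.45% as higher in line 4. Whether these lists differ from those shares was not tested.

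The 2 wall genes that did pass ran against their list. XTH19, whose product cuts and rejoins xyloglucan, read 82.5 and 108.5 in line 4, 30.2 and 30.3 on pair A3 and 25.2 and 30.9 in the control (1.65 ± 0.19, adjusted p = 0.0216). Its neighbour XTH18 read 271.9 and 237.7 in line 4, 97.9 and 63.7 on pair A3 and 183.7 and 209.8 in the control (1.69 ± 0.24, adjusted p = 0.0387). Both calls were lost without the filter. XTH19 was thus high in line 4 and XTH18 low on pair A3, although the fitted differences between the pairs were alike. The median of the 16 measured xyloglucan enzyme and expansin genes was -0.35. In this list 7 were separated as higher on pair A3 and 3 as higher in line 4, beside 34.0% and 20.4% of all probe sets. GRX480 stood in the same way against the CC-type glutaredoxins, of which 5 of 7 were separated as higher on pair A3 with none of them passing, at a list median of -0.55. None of the measured RALF peptide (6), calmodulin-binding IQ-domain (9), protein phosphatase 2C (13), histone (7), aldehyde dehydrogenase (8), SWEET (6) or bHLH genes (5) passed, and their list medians ran from -0.39 to 0.08, with at most 4 members of a list at an unadjusted p under 0.05. Over all probe sets 20.3% reached that level.

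**Figure D5:**
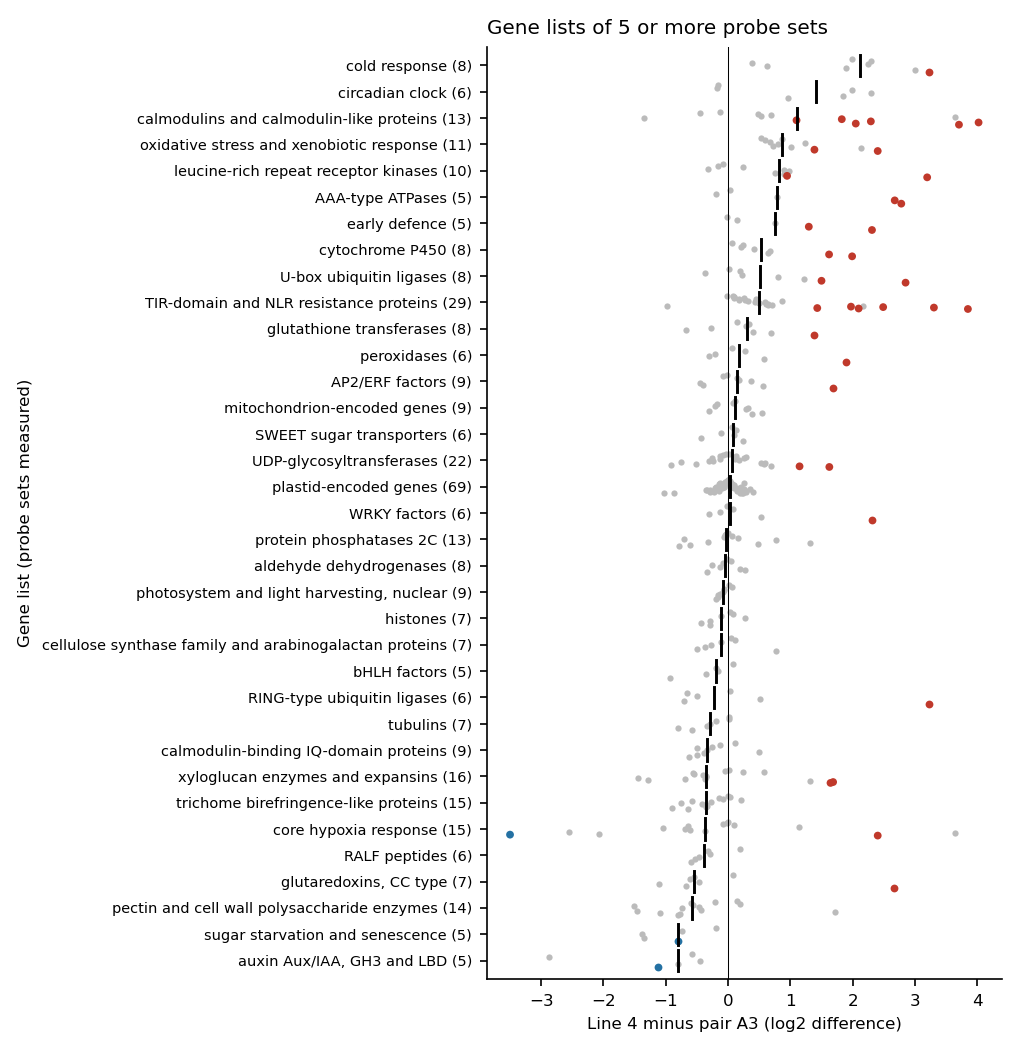
Line 4 minus pair A3 on the log2 scale for each measured probe set of the 35 gene lists with 5 or more, ordered by the list median (black bar); red and blue points passed limma at an adjusted p of 0.05 and grey points did not. Calls stood on the right in 18 lists and on the left in 3, and 15 lists held none.

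Genes of the organelles and of photosynthesis showed no call. None of 69 plastid-encoded genes passed in limma, 3 reached an unadjusted p under 0.05 (20.3% of all probe sets did), and the median was 0.03. In this list 12 were separated as higher in line 4 and 7 as lower, beside 20.4% and 34.0% of all probe sets. None of 9 mitochondrion-encoded genes (median 0.12, 1 at an unadjusted p under 0.05) or 9 nuclear photosystem genes (median -0.08, 0 at that level) passed. The leaf marker LHCB4.1 read 3441.6 and 3185.9 in line 4 and 3660.3 and 3246.0 on pair A3, and the root marker PYK10 read 2320.4 and 2237.7 against 2178.5 and 2547.6. Both markers were high on every array, and the pairs overlapped at each. The root hair gene EXPA18 and the guard cell gene FMA were low, at 33.6 and 32.0 against 50.5 and 36.8 and at 30.5 and 26.5 against 66.5 and 37.0. At both EXPA18 and FMA the pairs did not overlap and pair A3 was higher, as at 34.0% of all probe sets. Neither passed (adjusted p = 0.375 and 0.257), and these 4 were the tissue markers left after the filter. In whole seedlings, fewer cells of a type and less RNA per cell cannot be told apart.

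The A3 arrays differed most from each other at genes where line 4 took a side with 1 of them. AT4G34950, of the major facilitator family, read 6.8 on A3-1 and 331.8 on A3-2, with 227.3 and 192.2 in line 4 and 338.1 and 393.8 in the control. AT1G56300, a DnaJ-type chaperone gene, read 23.4 and 546.3, with 580.1 and 578.9 in line 4 and 751.2 and 658.3 in the control. AT5G62360, of the pectin methylesterase inhibitor family, read 11.7 and 219.4, with 339.9 and 343.4 in line 4 and 304.4 and 290.5 in the control. With COR27 and AT4G33980 these were the 5 genes lowest on A3-1 relative to A3-2, and in each A3-2 and line 4 were nearer to the control than A3-1 was. The 5 genes highest on A3-1 relative to A3-2 were AT1G65490, OSM34, IAA29, MGL and AT3G16990. OSM34, an osmotin-like defence gene, read 620.1 on A3-1, 79.9 on A3-2, 581.3 and 504.3 in line 4 and 248.1 and 208.2 in the control. AT1G65490 read 686.0 and 73.5, with 412.0 and 434.8 in line 4 and 196.6 and 245.0 in the control. At both of these genes line 4 and A3-1 lay above the control and A3-2 lay below it, and at MGL (134.6 and 23.2) A3-1 stood alone above line 4, A3-2 and the control.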

How the data were processed

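Seedling RNA was turned into biotin-labelled cRNA and read on 1 Affymetrix ATH1 array per sample, per the labels' protocols. The authors deposited 1 intensity for each probe set, on a linear scale. Their method of summarising probes was not given in the sources used here, and the values show only that every array has a 2% trimmed mean of 100.01.

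Values of 0 (91 on the 4 arrays) were raised to 0.1, the smallest positive value, before log2 was taken. Of 22810 probe sets, 64 control probe sets and the lowest 40% of the other 22746 by mean log2 value over the 4 arrays were left out, which kept 13648. The pairs were fitted with limma 3.58.1 in R 4.3.3 (lmFit, then eBayes with the prior variance following mean level; 2 residual degrees of freedom), and p-values were adjusted by Benjamini-Hochberg over all 13648. The fit was tested on simulated data, where it missed most changes of 2-fold, so a gene without a call may still differ. The design text names 2 biological replicates, but nothing in the labels says that pools were grown or harvested separately. Same-numbered arrays did not deviate together (r = 0.01 between the within-pair differences). The A3 arrays may differ in genotype, so this value cannot tell whether same-numbered arrays shared a batch. The number of arrays limits the precision.

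Gene names came from the platform annotation, which gave 1 gene for 7339 of the probe sets kept, several for 280 and none for 6029, with symbols updated through the TAIR10.1 gene table. Roles of genes given by locus are background knowledge. No table of promoters was at hand, so the promoter count planned was not run. Named are the 15 probe sets of 1 gene with the widest gap in each direction, the 5 with the smallest p in each direction, up to 6 members of each of 54 gene lists and the 5 largest differences in each direction within pair A3. AT4G39670 was named after its value was seen. The members and lists were chosen with earlier results of these data known, and the lists were adjusted once gene names were seen. Lists share members, such as WRKY53, AT1G05575, CML38, COR27 and AT4G33980.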

Additional observations from a re-analysis of the deposited data

Results flagged for a closer look

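Control probe sets for ribosomal RNA, which enter no comparison, read above both control arrays on some of the other arrays. The 5S probe set read 83.2 on A3-1 and 73.2 on A3-2, against 12.7 and 16.1 on the control arrays. For 25S the readings were 915.9 on A2-2, 2189.3 on A3-1 and 1073.1 on A3-2, against 282.1 and 277.2 on the control arrays.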

How the results depend on the processing

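Counts moved with the filter, with the handling of array A3-1 and with single arrays of line 4. Of 383 probe sets that passed as higher in line 4 and 89 as higher on pair A3, the stricter filter (lowest 60% left out) left 235 and 59, all 6 arrays as 3 groups gave 699 and 365, and counting A3-1 as a control array gave 43 and 0. With the array number as a replicate block, a pairing that was not established, 230 and 27 passed. Without a filter 263 and 38 passed. Leaving out 1 array at a time gave 15 to 2318 and 0 to 2819. The lows came without a line 4 array, the highs without an A3 array, where the spread comes from line 4 alone and the lone A3 array is assumed to vary like it. Pairs that did not overlap numbered 3562 to 4990 (higher in line 4) and 5683 to 6981 (higher on pair A3) when 1 array was left out, and 4588 as higher in line 4 with A3-1 as a control. Probe sets 2-fold apart numbered 398 to 737 and 109 to 365 when 1 array was left out, since fewer arrays had to be separated; the stricter filter left 232 higher in line 4, and A3-1 as a control gave 136 higher on pair A3.

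Of 58 named probe sets that passed, 58 still did with log2(value + 10) and with all 6 arrays, 54 with quantile normalisation, 54 without the variance trend, 45 with the block, 41 without a filter, 33 of the 37 tested with the stricter filter and 8 with A3-1 as a control. Without line 4 replicate 1, 3 did (AT5G55450, AT3G60420 and AT5G03350), and without line 4 replicate 2, 7 did. Signs turned at 36 of 267 named probe sets without A3-1, with the same differences when A3-1 counts as a control, at 19 without A3-2, at 3 and 9 without a line 4 array and at 1 with quantile normalisation; 9 turned past the threshold, each with an A3 array left out. For these, without A3-1 and without A3-2, the differences were -0.67 and 4.94 for AT4G34950, -0.65 and 5.23 for AT4G33980, -0.73 and 4.72 for COR27, 2.53 and -0.70 for AT1G65490, 0.56 and -1.71 for GH3.3, -0.54 and 0.51 for PORB, -0.24 and 0.24 for JAL34, -0.37 and 0.51 for SAPX and -0.43 and 0.46 for TUB9. The cause was not tested.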

Other observations

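Among the 189 genes at least 2-fold apart that have a position in the gene table, 8 pairs lay next to each other or with 1 gene between, and 7 of these pairs had the same direction. They were AT1G67800 with SUFE2, AT1G72900 with AT1G72920, AT1G72920 with AT1G72940, AT2G32020 with AT2G32030, AT4G27652 with AT4G27654, XTH18 with XTH19 and AT5G52750 with AT5G52760, chosen after their values were seen. Neighbours of 1 family can share probes, which was not tested. Line 4 and the A3 arrays taken singly gave 233 probe sets that passed in opposite directions against A3-1 and against A3-2, beside 1095 that passed as higher in line 4 and 853 that passed as lower against both. Those fits share the line 4 arrays.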
